A study of Homo sapiens with 6 samples.

Results

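The 6 genes described here are known from acute myeloid leukemia (AML) with KMT2A fusions: MEIS1, PBX3, MEF2C, JMJD1C, CDK6 and ZEB2. They were chosen by name from 20007 protein-coding genes and followed through the H3K27ac peak lists of the series. For each gene, the peaks overlapping its gene body or the 50 kb on either side (its region) were counted and their width was measured, together with the bases under peaks within 2500 bases of the start of its canonical transcript (its promoter window). For the line labelled Kasumi-1 the 6 regions held 20 of the 22768 peaks of the control (NC) list and 26 of the 23878 of the knockdown (sh-ANP32B) list. For MV4-11 they held 36 of 24523 and 34 of 22136 peaks.

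The study asked what depletion of ANP32B, a histone-binding protein, does to histone acetylation in AML cells. H3K27ac was profiled by CUT&Tag, in which an antibody guides a transposase to the marked chromatin, in human AML lines labelled Kasumi-1 and MV4-11. The first is established from leukemia with the fusion RUNX1::RUNX1T1, the second from leukemia with KMT2A::AFF1. The NC cells are labelled as untreated and, by the study's methods, carried a control hairpin after lentiviral infection. The sh-ANP32B cells carried a hairpin against ANP32B, and which of the study's hairpins was used is not given in the labels. There was 1 peak list for each line and treatment, called on merged replicates, with neither peak heights nor read depth. The differences below therefore have no replicate check and no test. They describe 4 lists, and a difference in depth cannot be told apart from a difference in acetylation. The 2 IgG samples are not analysed here.

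H3K27ac marks active promoters and enhancers, and in leukemia cells long stretches of it cover genes on which the cells depend. KMT2A fusion proteins bind the starts and first introns of a limited set of genes and keep them transcribed through elongation factors and the histone methyltransferase DOT1L. MEIS1 and PBX3 encode TALE homeodomain proteins that bind DNA with HOXA9 and are its cofactors in leukemia. MEF2C and ZEB2 encode transcription factors of hematopoietic cells, JMJD1C a Jumonji-domain protein related to the H3K9 demethylases, and CDK6 a G1 cyclin-dependent kinase on which KMT2A-rearranged cells depend.

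The labels were compared with genes known from the lines, and several went against them. Values stand here and below in 1 order, NC then sh-ANP32B of Kasumi-1, followed by NC then sh-ANP32B of MV4-11. The promoter window of HOXA9, a hallmark of KMT2A-rearranged AML, had 4335, 4707, 769 and 659 bases under peaks. The region of POU4F1, a hallmark of RUNX1::RUNX1T1 leukemia, had 0, 0, 1466 and 1445 bases, and that of KIT 2769, 2820, 5423 and 4951. RUNX1T1 had no peak in any list. Kasumi-1 and MV4-11 below are the names the labels give, and a direction between the lines holds for the labels only. Whether the names of the lines were exchanged was not tested. ANP32B itself had 3447, 3432, 3433 and 2631 bases in its promoter window, which does not measure a knockdown that acts on the mRNA.

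Sequences are shown at the sites on which the results turn. Each is 300 bases of hg38 inside the stretch that every library with the site covered, as near its centre as a window without an annotated exon allowed, and for PBX3 the 250 bases before the outermost annotated start. The lists give no summits, so a window marks no point of highest signal. Capitals mark matches, on either strand, to 7 motifs: TGTGGT for RUNX proteins, GAGGAA for ETS proteins, TGANTCA for AP-1, TTGCNNAA for CEBP proteins, AGATAA for GATA factors, TGACAG for MEIS proteins and TGATNNAT for HOX-PBX pairs. Sequences read 5′ to 3′ along the gene.
MEIS1 intron 6, in all 4 lists, chr2:66445297-66445596 (plus strand): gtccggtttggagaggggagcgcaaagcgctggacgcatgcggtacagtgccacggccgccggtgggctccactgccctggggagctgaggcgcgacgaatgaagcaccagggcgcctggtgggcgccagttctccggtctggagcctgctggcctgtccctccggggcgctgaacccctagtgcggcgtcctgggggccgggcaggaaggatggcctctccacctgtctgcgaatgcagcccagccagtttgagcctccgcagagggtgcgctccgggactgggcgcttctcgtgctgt
PBX3 before the start, Kasumi-1 lists, chr9:125747095-125747344 (plus strand): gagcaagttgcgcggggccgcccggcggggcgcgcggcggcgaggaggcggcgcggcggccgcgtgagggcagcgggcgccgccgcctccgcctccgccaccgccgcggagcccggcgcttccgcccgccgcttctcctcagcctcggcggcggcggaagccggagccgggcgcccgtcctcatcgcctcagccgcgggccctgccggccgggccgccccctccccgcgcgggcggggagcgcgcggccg
MEF2C intron 1, MV4-11 lists, chr5:88825865-88826164 (minus strand): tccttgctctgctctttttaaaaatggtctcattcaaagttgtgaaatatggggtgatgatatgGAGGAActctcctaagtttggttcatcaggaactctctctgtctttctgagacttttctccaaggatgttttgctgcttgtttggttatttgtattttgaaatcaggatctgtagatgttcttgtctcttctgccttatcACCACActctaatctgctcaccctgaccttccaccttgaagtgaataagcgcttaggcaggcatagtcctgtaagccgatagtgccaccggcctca
ZEB2 intron 2, in all 4 lists, chr2:144516762-144517061 (minus strand): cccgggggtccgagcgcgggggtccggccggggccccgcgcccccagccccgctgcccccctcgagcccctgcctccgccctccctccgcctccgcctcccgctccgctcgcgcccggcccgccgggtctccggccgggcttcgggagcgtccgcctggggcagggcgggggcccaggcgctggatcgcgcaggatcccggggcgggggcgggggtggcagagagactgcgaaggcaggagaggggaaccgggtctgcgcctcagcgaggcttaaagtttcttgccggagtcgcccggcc
JMJD1C intron 2, MV4-11 lists, chr10:63267531-63267830 (minus strand): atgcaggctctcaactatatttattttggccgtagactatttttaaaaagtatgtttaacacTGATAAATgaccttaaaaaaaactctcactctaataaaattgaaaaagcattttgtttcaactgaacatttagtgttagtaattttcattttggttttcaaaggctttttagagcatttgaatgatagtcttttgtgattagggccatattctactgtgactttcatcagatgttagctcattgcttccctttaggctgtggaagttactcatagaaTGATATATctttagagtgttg
CDK6 intron 3, in all 4 lists, chr7:92755316-92755615 (minus strand): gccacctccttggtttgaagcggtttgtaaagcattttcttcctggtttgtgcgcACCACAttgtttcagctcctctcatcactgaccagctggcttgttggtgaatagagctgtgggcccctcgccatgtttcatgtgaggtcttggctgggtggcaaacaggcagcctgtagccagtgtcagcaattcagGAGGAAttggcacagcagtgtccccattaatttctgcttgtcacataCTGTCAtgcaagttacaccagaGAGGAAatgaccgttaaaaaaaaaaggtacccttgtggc

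The windows of MEIS1, PBX3 and ZEB2 were GC-rich, with 69.7%, 86.4% and 80% G or C and 25, 52 and 39 CpG pairs, and held a match to none of the 7 motifs. Those of MEF2C, JMJD1C and CDK6 held 43%, 31% and 49.3%, where the median over the centres of 93300 peaks of all 4 lists was 54%. CDK6 had 1 RUNX, 2 ETS and 1 MEIS match, MEF2C 1 RUNX and 1 ETS match, and JMJD1C 2 HOX-PBX matches. Of the 300-base centres of all peaks, 20% held the RUNX letters, 29.6% ETS, 18.2% MEIS, 6.7% HOX-PBX, 10.4% AP-1, 12.4% CEBP and 9.64% GATA. A match describes the letters of a window and is not a binding site.

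The summed coverage of the 6 genes differed more between the lines than between NC and sh-ANP32B of a line. Their regions together held 33495, 34072, 56888 and 48797 bases under peaks. These peaks formed 45 separate sites once overlapping peaks were merged. Of these sites, 12 were in all 4 lists, 22 in MV4-11 lists only and 5 in Kasumi-1 lists only. The members' own promoter windows took 7 sites and those of other coding genes (NRBF2, FAM133B and GTDC1) took 3, while 32 of the other 35 had their centre in an intron of the canonical transcript.

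**Figure D1:**
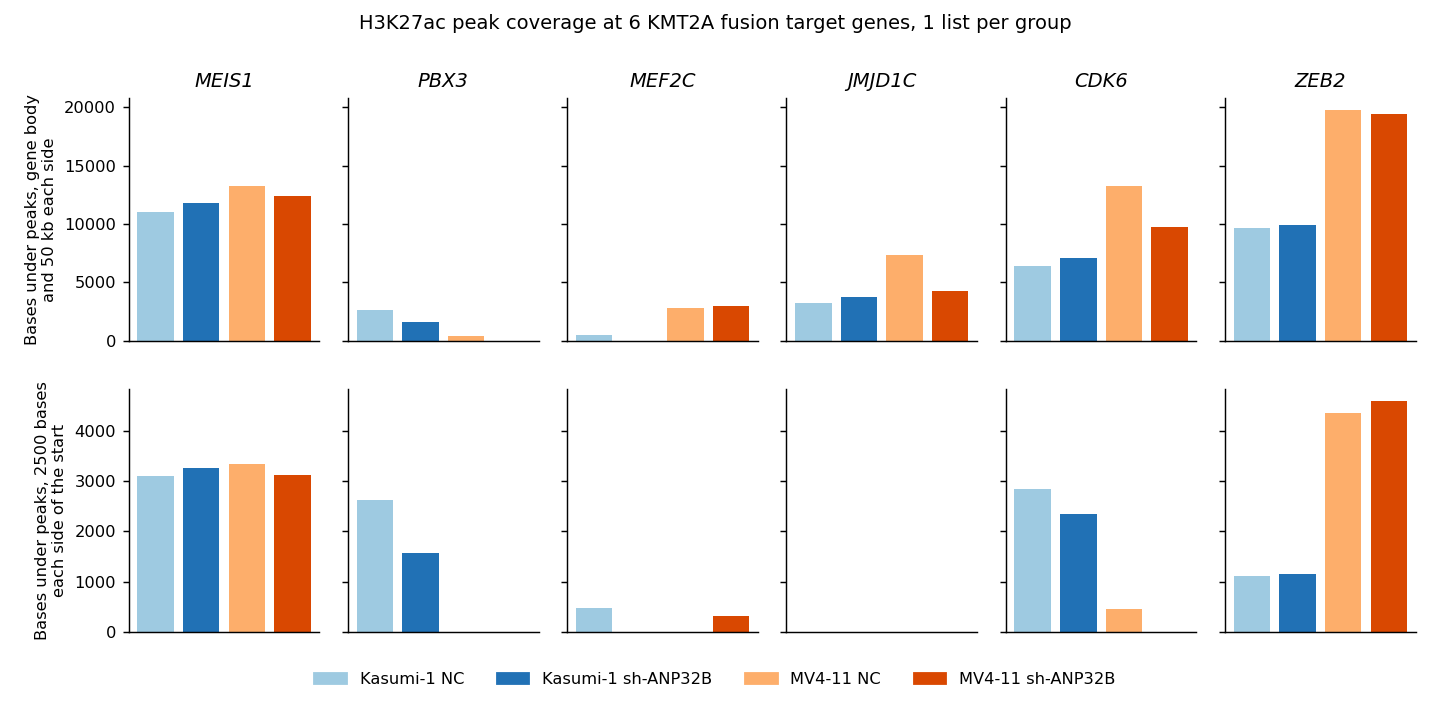
Bases under H3K27ac peaks in the region (top row) and the promoter window (bottom row) of the 6 genes, with 1 bar per peak list and no error bars because each group has 1 list. ZEB2 reaches 19781 bases in MV4-11 NC against 9673 in Kasumi-1 NC, PBX3 has bars at its promoter in the Kasumi-1 lists only, and JMJD1C has none at its start in any list.

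**Figure D2:**
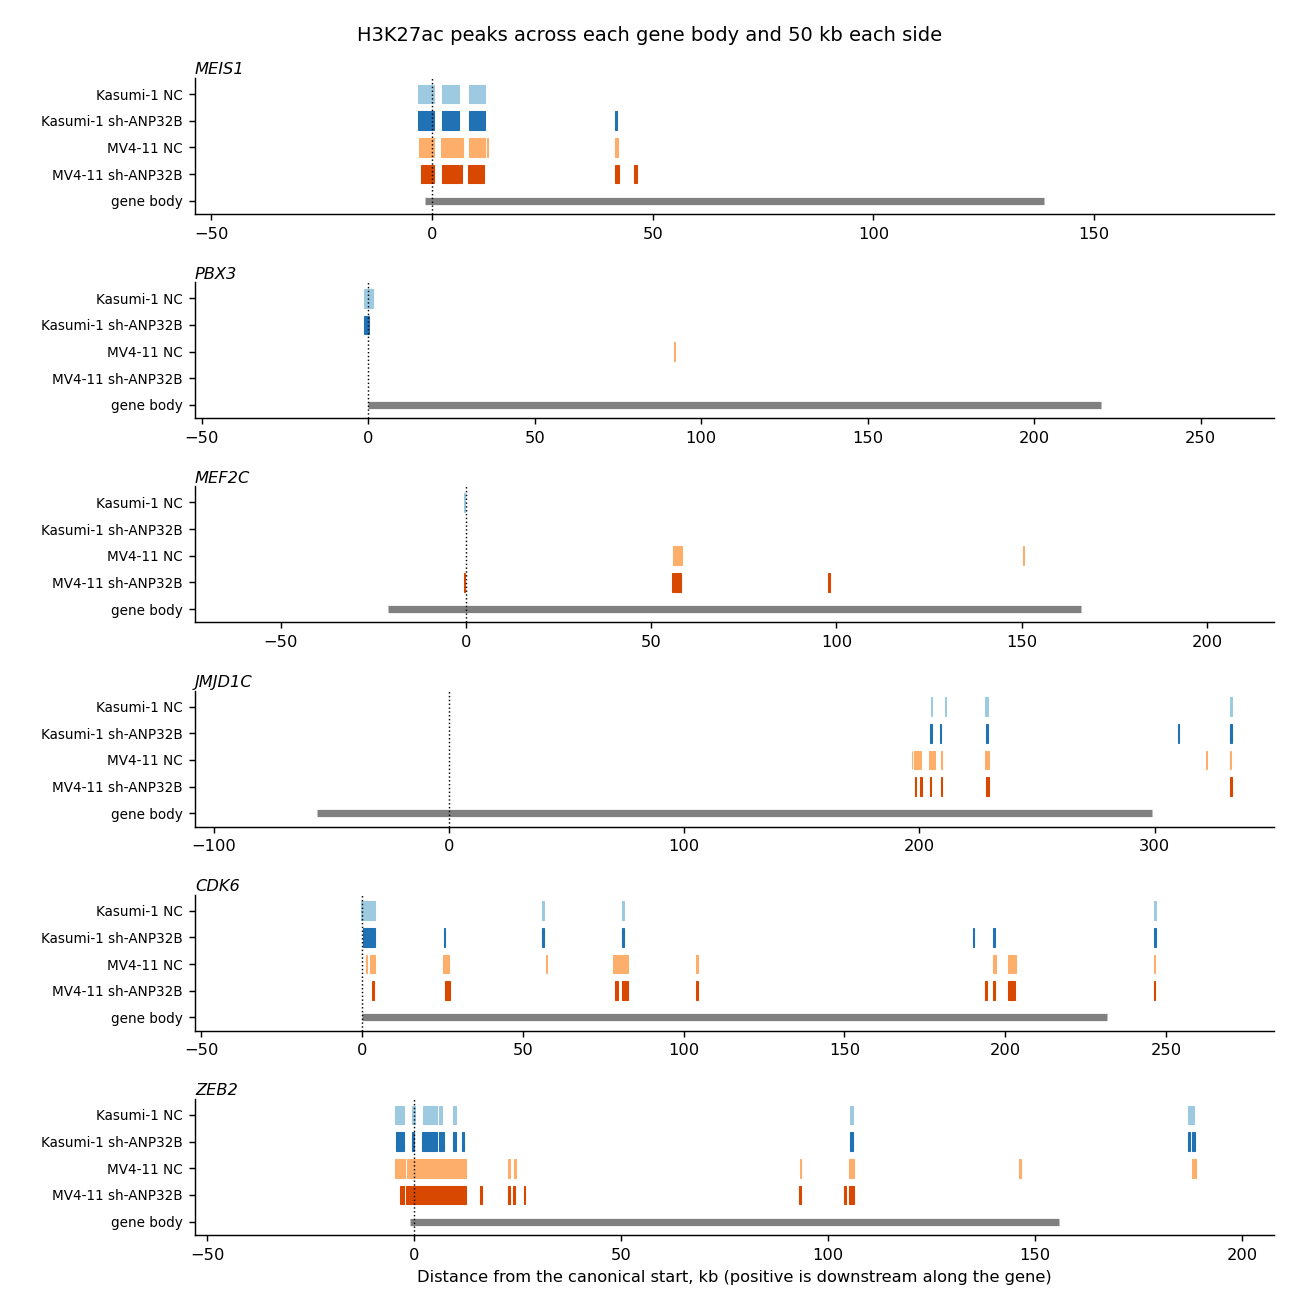
Peaks of the 4 lists across each gene body and 50 kb on either side, with distance from the canonical start in kb on the horizontal axis and 1 row per list, the gray bar being the gene body. MEIS1 shows the same 3 blocks in every list, and CDK6 and JMJD1C show most of their MV4-11 peaks inside introns.

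MEIS1 (chromosome 2, 66433452 to 66573869, plus strand) was covered almost alike in every list. Its region had 11031, 11794, 13238 and 12414 bases under peaks. Its promoter window had 3103, 3264, 3337 and 3123. All 4 lists are within a narrow span of each other at both places.

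The 3 main sites made up nearly all of the MEIS1 coverage in each list: the start, intron 2 and intron 6. The peak at the start was 3477, 3669, 3360 and 2930 bases wide. The intron 2 site held 3920, 3935, 4992 and 4281 bases, the last as a pair of peaks. The intron 6 site, whose sequence is shown above, held 3634, 3725, 3649 and 3631 bases. Thus the site farthest into the gene varied least among the 3. The remaining MEIS1 peaks lay in introns 6 and 7, were 358 to 910 bases wide and were absent from Kasumi-1 NC.

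PBX3 (chromosome 9, 125747345 to 125967377, plus strand) had a single peak of any size, at its start and in the Kasumi-1 lists only. The NC peak ran from 125746134 to 125748749, 2616 bases, and the sh-ANP32B peak from 125746134 to 125747703, 1570 bases. Its upstream edge was at the same base in both lists, and only the end inside the gene differed. In MV4-11 NC the region held only 1 peak of 390 bases in intron 2, and in MV4-11 sh-ANP32B it held none. The MV4-11 lists, which carry the name of the KMT2A-fusion line, thus lacked a call at the start of this HOX cofactor.

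MEF2C (chromosome 5, 88717117 to 88904257, minus strand) had little coverage, at different places in the lines. Its region held 482, 0, 2821 and 2987 bases. In Kasumi-1 NC this was 1 peak of 482 bases just upstream of the canonical start at 88883184. At the same place MV4-11 sh-ANP32B had a peak of 322 bases, and the other lists had none.

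The main MEF2C site, in intron 1 from 88824782 to 88827489, was in the MV4-11 lists only. It was 1 peak of 2522 bases in NC and a pair of 1521 and 540 bases in sh-ANP32B. MEF2C has many alternative starts, 52 in the annotation, and 6 of them lie inside this site. Of the 7 RefSeq starts of the gene, that at 88827192 lies inside the site. Those at 88824344 and 88823927 lie just past it along the gene. In this order their windows held 2522, 2063 and 1646 bases in MV4-11 NC. In MV4-11 sh-ANP32B they held 2061, 1521 and 1289, against 0 in both Kasumi-1 lists.

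ZEB2 (chromosome 2, 144364364 to 144521057, minus strand) had the widest peak of the whole list in both MV4-11 libraries. It spanned the start and intron 2, from 144507575 to 144521746 (14172 bases) in NC and from 144507539 to 144522118 (14580 bases) in sh-ANP32B. It ranked 1 of 24523 and 1 of 22136 by width. In Kasumi-1 the same stretch was broken into 4 peaks of 552, 727, 737 and 3459 bases in NC and 5 of 373, 530, 751, 1116 and 3490 bases in sh-ANP32B. The gaps of the Kasumi-1 lists were thus filled in the MV4-11 lists.

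The ZEB2 promoter window had 1108, 1145, 4346 and 4597 bases under peaks, so that its rank among the 20007 genes was 6579, 5976, 40 and 13. Its region had 9673, 9909, 19781 and 19401 bases. Both MV4-11 values lay far above both Kasumi-1 values at each place. Of 46 annotated ZEB2 starts, 33 lay inside the site around the start. A smaller site in intron 4, from 144413836 to 144415092, was in every list with 623, 550, 1053 and 1257 bases.

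JMJD1C (chromosome 10, 63167221 to 63521850, minus strand) had no peak in its promoter window in any list. The window around its outermost start, where it lies head to head with REEP3, was also at 0 in every list. Its region held 3254, 3721, 7376 and 4228 bases, of which 1018, 934, 566 and 1059 were at the promoter of the neighbor NRBF2. MV4-11 NC stood above the other lists.

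The JMJD1C peaks were gathered in introns 2 and 3, about 200 kb past the canonical start. RefSeq has an internal start at 63269243, which along the gene lies just before the first peak of this cluster. The window around it held 0 bases in both Kasumi-1 lists, 1618 in the NC list of MV4-11 and 403 in its sh-ANP32B list. The widest peak there, in intron 2, was 1842 bases wide in the NC list of MV4-11 (63266225 to 63268066) and 403 in its sh-ANP32B list (63267480 to 63267882). A neighboring peak of the same intron went the other way, with 426 bases in NC and 750 in sh-ANP32B.

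A site in intron 3 of JMJD1C, from 63236291 to 63238154, was in all 4 lists with 1335, 750, 1709 and 1192 bases. It was narrower in sh-ANP32B than in NC in both lines. Part of it is repeated sequence: 73.6% of its 32-base words occurred once in the genome, and the most frequent occurred 63984 times. What repeats did to the calls was not tested.

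CDK6 (chromosome 7, 92604921 to 92836573, minus strand) had its coverage at the start in Kasumi-1 and inside its introns in MV4-11. Its promoter window held 2834, 2351, 455 and 0 bases. Its region held 6439, 7078, 13282 and 9767. The lines thus stood in opposite orders at the start and over the whole gene.

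The CDK6 peak at the start was 4314 and 3777 bases wide in the Kasumi-1 lists. In MV4-11 NC it was a pair of 1745 and 302 bases that lay past the start, and in MV4-11 sh-ANP32B 1 peak of 667 bases. A second RefSeq start of CDK6 lies at 92833959, inside the site, and its window held 3867, 3777, 2047 and 667 bases. Coverage there was lower in sh-ANP32B than in NC in both lines.

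The largest intronic site of CDK6 was in intron 3, from 92754006 to 92758528, and is shown above. It held 700 and 684 bases in the Kasumi-1 lists, 4505 in MV4-11 NC and, in a pair of peaks of 1864 and 842 bases, 2706 in MV4-11 sh-ANP32B. A site in intron 5, from 92633168 to 92635667, was in the MV4-11 lists only, as peaks of 1135 and 1012 bases in NC and of 2328 in sh-ANP32B. A site in intron 2 of 1864 and 1509 bases in the MV4-11 lists had 411 in Kasumi-1 sh-ANP32B and 0 in Kasumi-1 NC. So the intron 3 site was narrower after knockdown in MV4-11, while the intron 5 site was not.

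**Figure D3:**
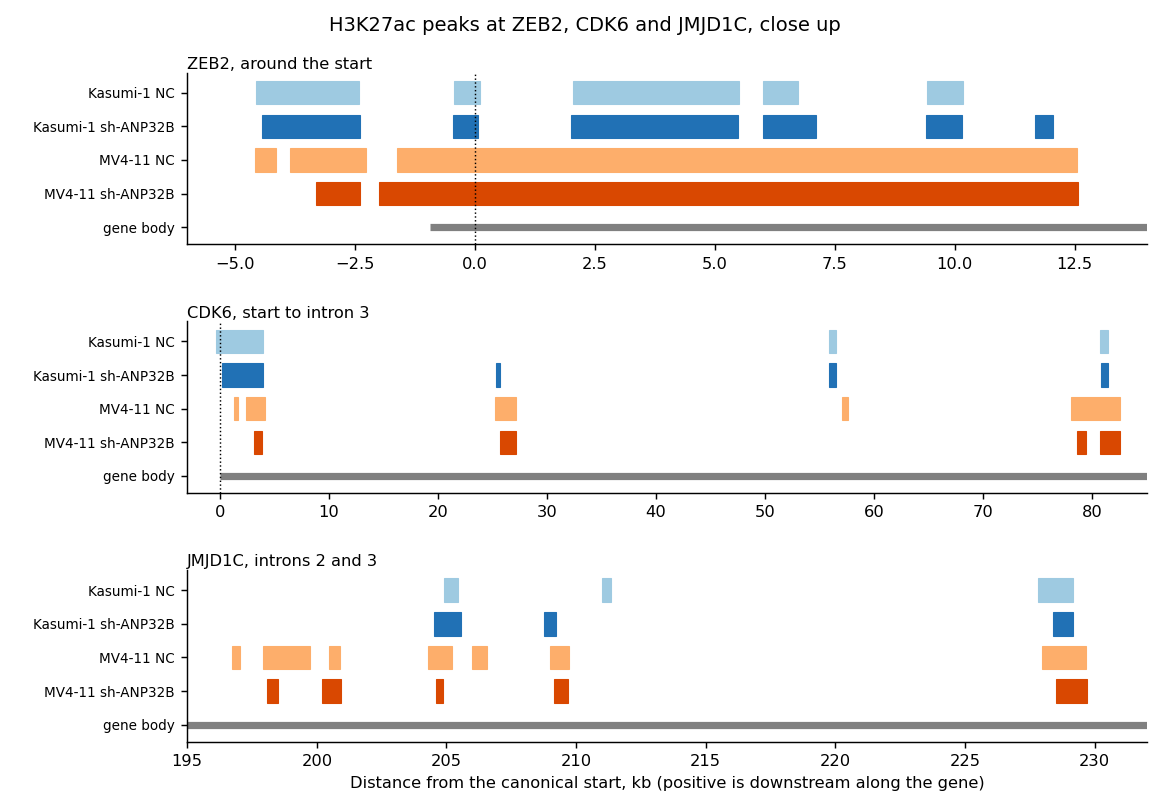
Peaks of the 4 lists around the ZEB2 start, from the CDK6 start to intron 3, and in introns 2 and 3 of JMJD1C, by distance from the canonical start in kb. The MV4-11 lists have 1 unbroken ZEB2 peak of 14172 or 14580 bases where the Kasumi-1 lists have 4 or 5, and the MV4-11 NC peaks of 4505 bases in CDK6 and 1842 in JMJD1C are narrower or split after knockdown.

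The first comparison was of sh-ANP32B with NC in Kasumi-1. A gene was called at a difference of at least 1.5-fold where the higher list had at least 1000 bases in the region or 500 in the promoter window. Of the 6 genes, 4 had more bases in the region and 2 fewer, beside 56.2% and 43.7% of all 13502 tested genes. PBX3 was the only one called, at a log2 ratio of -0.74 in both the region and the promoter window. The log2 ratios of the other genes with peaks in both lists were 0.10 for MEIS1, 0.19 for JMJD1C, 0.14 for CDK6 and 0.03 for ZEB2.

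Over all genes in Kasumi-1, 4.53% of 13502 were called lower and 3.04% higher by region, with a median log2 ratio of 0.03. By promoter, 12.8% of 9152 were called lower and 3.78% higher. Among genes with regions at least as long as the shortest of the 6, 5.72% were called lower and 5.21% higher. With the bases divided by the list's total, ZEB2 stood at -0.01 in the region, so that its direction turned. The PBX3 call was lost when the region reached 100 kb on either side, at -0.47, while the gene body alone gave -1.97. Among peaks of at least 1000 bases JMJD1C turned to a called -1.15 and CDK6 to -0.19, and with 100 kb on either side they stood at -0.12 and -0.06. Without the NRBF2 promoter, JMJD1C stood at 0.32.

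In MV4-11 the regions of 5 genes had fewer bases after knockdown and that of MEF2C more. Of all 12219 genes tested by region, 79.2% had fewer bases and 20.7% more, so most genes went the same way. The direction of MEF2C turned, to a called log2 ratio of -0.73, among peaks of at least 1000 bases. JMJD1C was the only one called, at a log2 ratio of -0.80, and without the NRBF2 promoter its region held 6810 bases in NC and 3169 in sh-ANP32B. The log2 ratio was -0.44 for CDK6, -0.09 for MEIS1, -0.03 for ZEB2 and 0.08 for MEF2C. Without the GTDC1 promoter, the direction of ZEB2 turned, with 18801 bases in NC and 19401 in sh-ANP32B. PBX3 went from 390 bases to none, too few to be called.

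The background in MV4-11 was itself low: 34.1% of 12219 genes were called lower by region and 3.94% higher, and the median log2 ratio was -0.35. With JMJD1C as the 1 call among 5 tested genes, the members were called no more often than genes at large. At promoters none of the 2 tested members, MEIS1 and ZEB2, was called, where 42.1% of 6247 genes were called lower and 5.14% higher. For long regions the shares were 34.7% lower and 4.09% higher. The MV4-11 lists differ in total by -0.28 on the log2 scale, and relative to it MEIS1 stood at 0.19, ZEB2 at 0.25 and MEF2C at 0.36. CDK6 then stood at -0.17, and JMJD1C, at -0.52, was no longer called, so the directions of MEIS1 and ZEB2 in MV4-11 depend on this scaling. Scaled in this way, 20.9% of all genes were called lower and 8.01% higher by region.

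**Figure D4:**
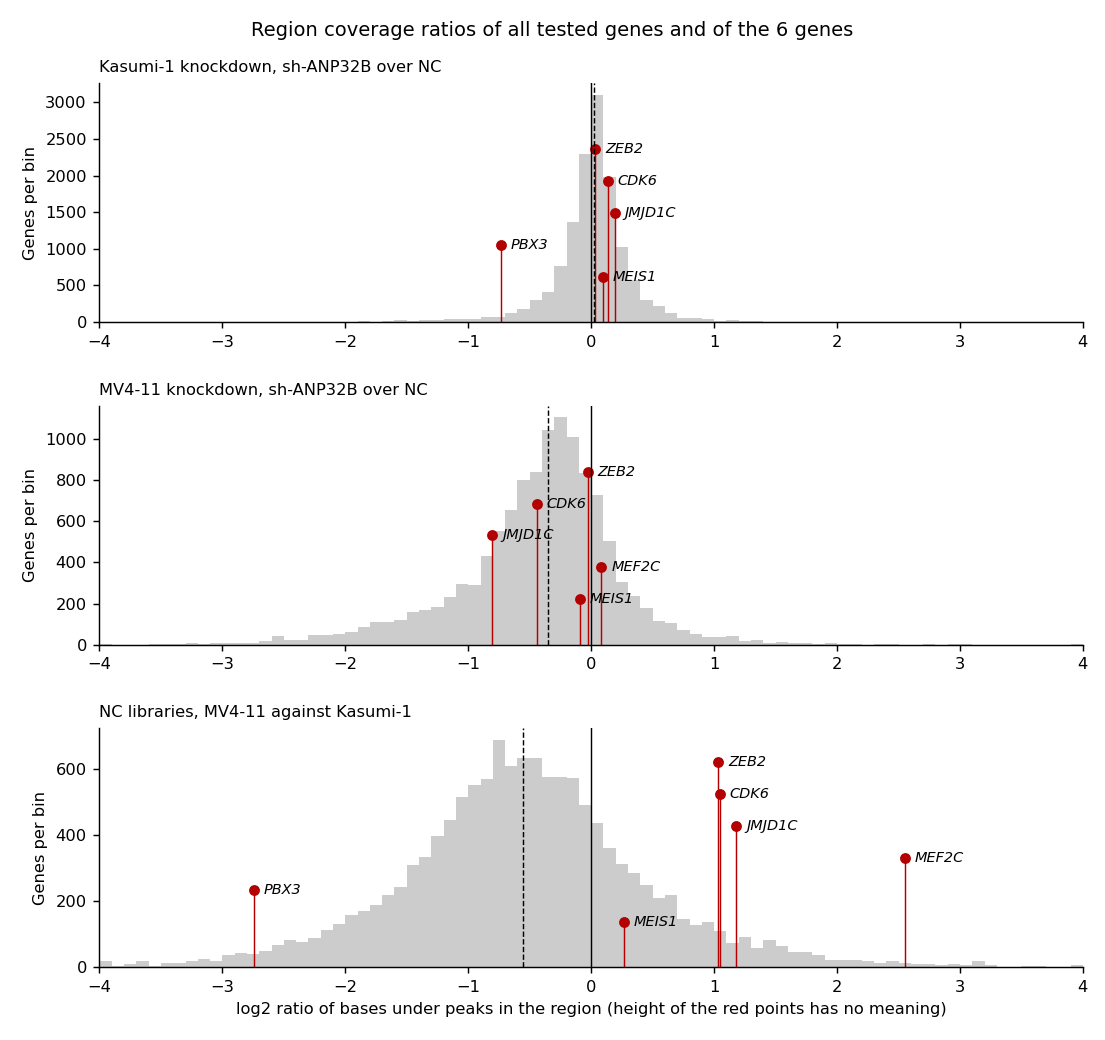
Log2 ratios of bases under peaks in the region for all tested genes with peaks in both lists (gray bars, genes per bin of 0.1) and for the 6 genes (red points, whose height has no meaning), with the median of all genes dashed. In MV4-11 the median is at -0.35 and MEIS1, ZEB2 and MEF2C lie above it, and between the NC lists JMJD1C, CDK6, ZEB2 and MEF2C lie above 1.

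The NC libraries were then compared between the lines. By region 4 genes were called higher in MV4-11, MEF2C at a log2 ratio of 2.55, JMJD1C at 1.18, CDK6 at 1.04 and ZEB2 at 1.03. PBX3 was called lower at -2.75, and MEIS1 stood at 0.26. These directions are those of the labels, against which HOXA9, POU4F1 and KIT went.

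Over all genes, 12.55% of 13957 were called higher in MV4-11 NC by region and 50.1% lower. Long genes differed from this: 31.3% of the 1529 tested genes with regions at least as long as the shortest of the 6 were called higher and 26.4% lower. At promoters PBX3 and CDK6 were called lower and ZEB2 higher, where 61.6% of 9166 genes were called lower and 4.76% higher. Scaling to the list's total left all 5 region calls in place.

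Peaks were also followed one by one. In Kasumi-1, 2 of 20 NC peaks at the 6 genes (10%, Wilson 95% interval 2.79 to 30.1) had no overlap in sh-ANP32B, where 9% of all peaks had none. Of the 26 sh-ANP32B peaks 7 were gained (26.9%, 13.7 to 46.1), against 13.2% of all peaks. In MV4-11 the NC list lost 11 of its 36 peaks at these genes (30.6%, interval 18.0 to 46.9), against 29.1% of all its peaks. Of the 34 peaks after knockdown, 7 were new (20.6%, interval 10.3 to 36.8), against 17.7% of all. The intervals cover counting error only. They treat the peaks of 6 genes as independent draws, so they are no test against the shares of all peaks. The 7 peaks gained in Kasumi-1 were 357 to 521 bases wide. The widest lost peak was that of 980 bases at the GTDC1 promoter next to ZEB2, in MV4-11, and the widest gained one was of 710 bases in intron 5 of CDK6. No peak of 1000 bases or more was lost or gained at these genes in either line. The share over all peaks of that width was not measured.

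Between the NC lists, 21 of the 36 MV4-11 peaks (58.3%, 42.2 to 72.9) had no overlap in Kasumi-1, against 34.8% of all MV4-11 NC peaks. CDK6 and JMJD1C held 6 each of these, up to 1864 bases wide. In the other direction 4 of 20 Kasumi-1 NC peaks (20%, 8.07 to 41.6) were absent from MV4-11 NC, against 33% of all, and the widest was that of 2616 bases at the PBX3 start.

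**Figure D5:**
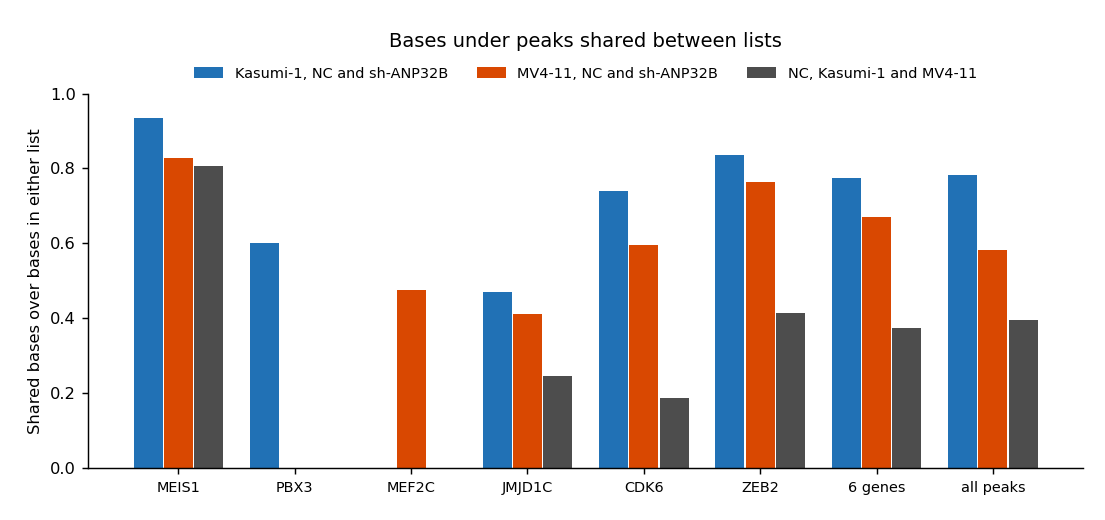
Share of bases under peaks common to a pair of lists, out of the bases under peaks in either, for each gene, the 6 genes together and all peaks. MEIS1 is highest in each pair, from 0.805 between the NC lists to 0.934 within Kasumi-1, and PBX3 and MEF2C share no base between the NC lists.

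Counted in bases, the shared part of the 6 genes between NC and sh-ANP32B was 0.774 in Kasumi-1 and 0.671 in MV4-11, beside 0.783 and 0.582 for all peaks. Between the NC lists it was 0.375, beside 0.396. The genes spread widely around these values. Within MV4-11 it was 0.828 for MEIS1, 0.763 for ZEB2, 0.595 for CDK6, 0.477 for MEF2C, 0.411 for JMJD1C and 0 for PBX3, whose 1 peak of 390 bases was in NC alone.

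Peaks outside or reaching beyond promoter windows were joined across short gaps into domains and ranked by the bases under their peaks. MEIS1 had a domain among the 500 highest in every list, at rank 299 of 7694 and 321 of 8087 in Kasumi-1 and at rank 164 of 9997 and 178 of 9273 in MV4-11. ZEB2 had one in MV4-11 only, at rank 71 in NC and 54 in sh-ANP32B. In Kasumi-1 it stood at 656 and 629. The JMJD1C domain in introns 2 and 3 ranked 989 in the NC list of MV4-11 and 2605 in its sh-ANP32B list, with 4792 and 1977 bases under its peaks. PBX3 and MEF2C had no domain above rank 2312.

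Other genes of these pathways were counted in the same way. The first list held 8 further TALE homeodomain genes, those of the MEIS, PBX and PKNOX families and TGIF1. Of these, 5 were tested by region in each comparison and none was called after knockdown in Kasumi-1. In MV4-11, PBX2 (1730 to 0 bases) and PKNOX1 (2652 to 1468) were called lower, where 34.1% of all tested genes were called lower. By promoter, 3 of the list were tested in each line. None was called in Kasumi-1, and PBX2 and PKNOX1 were again called lower in MV4-11, where 42.1% of all tested genes were. Of 7 paralogs of the other members, none of the 6 tested in Kasumi-1 and 5 in MV4-11 was called by region after knockdown. By promoter, 6 were tested in each line. MEF2B (706 to 1590 bases) was called higher in Kasumi-1, and MEF2A (854 to 0) and MEF2B (548 to 304) lower in MV4-11. Of all genes tested by promoter, 3.78% were called higher in Kasumi-1 and 42.1% lower in MV4-11. Between the NC lists PBX2 in the first list and MEF2A, MEF2B and CDK4 in the second were called lower in MV4-11 by region. Of all genes tested in that comparison, 50.1% were called lower.

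Of 20 other KMT2A fusion targets, 0 of 15 tested were called by region in Kasumi-1, where 13 had more bases after knockdown and 2 fewer, beside 56.2% and 43.7% of all tested genes. HOXA5, HOXA7, HOXA9 and HOXA10, among the 13, share 1 cluster and hence most of the same peaks. In MV4-11, 6 of 16 were called lower and 0 higher, beside the 34.1% and 3.94% of all genes given above: MYB (13363 to 7813 bases), BMI1 (17125 to 9868), MSI2 (3292 to 947), SATB1 (3269 to 1155), ARID2 (3539 to 2084) and EYA1 (1277 to 808). Their median log2 ratio was -0.28, beside -0.35 for all genes. Between the NC lists 9 of 17 were called lower in MV4-11, and MYB, EYA1 and RUNX1 higher, where 50.1% of all genes were called lower and 12.55% higher. The 4 HOXA genes were among the 9 and share most of the same peaks, so the 9 are not separate loci. With each HOXA gene counted by itself, the shares called lower by region lie near those of all genes in both comparisons. By promoter, 1 of 12 tested was called lower in Kasumi-1, 5 of 9 in MV4-11 and 7 of 12 between the NC lists. The shares of all genes were 12.8%, 42.1% and 61.6%. None was called higher by promoter.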

How the data were processed

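H3K27ac CUT&Tag libraries of 4 groups, 1 peak list each, were analysed. By the study's methods, reads were aligned to hg38, duplicates were removed, replicates were merged and peaks were called at a q-value of 0.01. The submitters' processing notes name Bowtie2 2.4.4 and MACS3 3.0. The lists deposited by the authors give each peak's chromosome, its first and last base (counted from 1) and its length. They give no height or summit, and depth is unknown. Smallest width and smallest gap differed between the lists (275 to 357 and 276 to 358 bases).

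Groups came from the labels. Of 96832 peaks, 3527 on sequences other than chromosomes 1 to 22, X and Y were left out. Genes, starts and exons were from GENCODE 44, further starts from RefSeq (GRCh38.p14), which listed all 6 genes, and sequence from hg38, with 0 peaks past a sequence end. Peaks not wholly inside promoter windows were joined where at most 12500 bases apart. The 6 genes, all lists and the genes for the label check were chosen with earlier results of these data known. Named peaks were the widest NC peaks and the widest lost and gained peaks of a gene. Others, and the sites at further RefSeq starts, were named after their values were seen. Scripts (Python 3.11.15, numpy 2.4.6, pandas 2.3.3, scipy 1.17.1) were tested on simulated intervals.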

Additional observations from a re-analysis of the deposited data

Results flagged for a closer look

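Several genes stood in opposite directions in the lines, a difference that was not tested, since a group has 1 list. By region, 56.2% of all tested genes had more bases after knockdown in Kasumi-1 and 79.2% had fewer in MV4-11. How many genes did both was not counted, so the directions are not particular to these genes. The values given for them are bases under peaks in sh-ANP32B minus those in NC. In the region they were 763 in Kasumi-1 and -824 in MV4-11 for MEIS1, 467 and -3148 for JMJD1C, 639 and -3515 for CDK6, and 236 and -380 for ZEB2. MEF2C went the other way, with -482 in Kasumi-1 and 166 in MV4-11. In the promoter window they were 161 and -214 for MEIS1 and -482 and 322 for MEF2C. Once bases were divided by the total of the list, MEIS1 had more after knockdown in both lines at both places, and ZEB2 had slightly fewer in the region in Kasumi-1 and more in MV4-11. When narrower peaks than 1000 bases were left out, the Kasumi-1 log2 ratios turned to -1.15 for JMJD1C, -0.19 for CDK6 and -0.08 for ZEB2. Under that setting these genes were lower after knockdown in both lines, and how many of all genes were so was not counted. The JMJD1C peaks of 1335 and 1018 bases in Kasumi-1 NC were 750 and 934 in sh-ANP32B, below this cut. The peak of 1018 bases was at the NRBF2 promoter. Without that promoter, and with peaks of any width, JMJD1C stood at 0.32 in Kasumi-1. MEF2C, with no peak of 1000 bases in Kasumi-1, turned to -0.73 in MV4-11. With 100 kb on either side, JMJD1C at -0.12 and CDK6 at -0.06 were also lower in both. The list totals differed by 0.04 on the log2 scale in Kasumi-1 and -0.28 in MV4-11, and their part in these values was not tested.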

How the results depend on the processing

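No paired analysis was possible because each group has 1 list and the labels carry no replicate numbers. Of the values under other settings, 108 counts and shares stayed near their main value and 36 did not, and 110 of the log2 ratios of single genes stayed and 4 did not. No call turned in direction. Among peaks of at least 1000 bases, 4 genes were lower and 1 higher by region in Kasumi-1, 2 of them called lower, while in MV4-11 0 were higher and 3 called lower. At such peaks 0% were lost and 0% gained in either line, and 35.7% of MV4-11 NC peaks were in 1 line only. With 100 kb on either side, 4 were lower, 2 higher and 0 called lower in Kasumi-1, and 2 were higher in MV4-11. With the gene body alone, or without the promoters of other genes, a setting added after the data were seen, 2 were higher in MV4-11. Scaled to the list's total, MV4-11 had 3 lower, 3 higher and 0 called lower by region and 1 lower by promoter. A smaller fold called 2 lower there. Promoter windows of 1000 bases on either side gave 1 higher and 2 called lower in Kasumi-1, and 0 lower and 1 higher in MV4-11. Windows of 5000 gave 1 higher in Kasumi-1, and 1 higher and 1 called lower in MV4-11. With common calling limits of 358 bases, or peaks of at least 1000 bases, 1 was higher by promoter in MV4-11. Where the overlap had to cover 50% of each peak, 50% were lost and 47.1% gained in MV4-11, and 60% of Kasumi-1 NC and 77.8% of MV4-11 NC peaks were in 1 line only. The shares of all peaks given above are for any overlap, so they cannot be set beside these. Among the 1000 highest domains, 2 genes had one in each Kasumi-1 list. The cause of these shifts was not tested beyond the construction of each setting. Read depth, which sets what a list can call, is unknown.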

Other observations

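The pattern of promoter bases over the 4 lists was compared with that of all genes by the summed absolute difference in bases. Nearest to MEIS1 were RNF149 (266 bases) and PLD1 (335), and nearest to PBX3 were TPTEP2-CSNK1E (178) and CAMSAP1 (192). SYNJ1 (52) and FCN1 (76) were nearest to MEF2C, KCNN2 (219) and RFX2 (268) to CDK6, and LPXN (1430) and TNFSF13B (1494) to ZEB2. JMJD1C shared its 0 in every list with 10020 genes. ZEB2 thus had the most distant nearest gene of the 5 compared.

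Of the 45 sites, 35 had at least 90% of their 32-base words once in the genome and 2 had under 50%. Both were in CDK6 and in Kasumi-1 lists only. The intron 2 site of 716 bases, in NC and sh-ANP32B alike, had 42.4% of its words once, and the intron 5 peak of 357 bases gained in sh-ANP32B had 32.8%. What repeated sequence did to these calls was not tested.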
